A study of Homo sapiens with 12 samples.

Results

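YY2 is a retrogene, an intronless copy of the transcription factor gene YY1 that sits inside an intron of the protease gene MBTPS2. The pair was read together with YY1, the parent of the copy, and MBTPS1, which encodes the protease that acts before the MBTPS2 product. These 4 genes were chosen by name from the 58780 gene rows of each count file, and all 4 passed the filter of at least 10 counts over the 12 libraries that left 26688 genes for testing. The libraries are poly(A)-selected, strand-specific RNA-seq of Flp-In T-REx HEK293 cells, a line of human embryonic kidney origin, collected on day 2 after transfection of small interfering RNAs (siRNAs). The 4 groups of 3 libraries had received a negative control siRNA alone (control), siRNA against SAFB with control siRNA added (SAFB1 KD), siRNA against SLTM with control siRNA added (SLTM KD), or siRNAs against SAFB, SAFB2 and SLTM together (triple KD). SAFB, SAFB2 and SLTM encode the 3 related RNA-binding proteins SAFB1, SAFB2 and SLTM, and all groups, control included, thus carried transfected siRNA in the same parental line. A single knockdown of SAFB2 was not analysed here.

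Retrogenes arise when a spliced mRNA is reverse transcribed and inserted elsewhere in the genome, so the copy has no introns of its own. YY1 and its copy YY2 are zinc finger proteins that bind related DNA sites, and YY1 also works as a subunit of chromatin complexes. MBTPS1 and MBTPS2 encode the site-1 and site-2 proteases of the Golgi, which cut membrane-bound transcription factors one after the other. The SREBP factors of sterol synthesis and ATF6 of the endoplasmic reticulum stress response are released in this way.

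On the GRCh38 assembly, with GENCODE 44 gene models, MBTPS2 covers chrX:21839617-21885423 on the forward strand and YY2 is a single exon of 2754 bp at chrX:21855987-21858740 on the same strand. YY2 lies in intron 5 of the 10 introns of the canonical MBTPS2 transcript, the longest of them at 14963 bp, and starts 2483 bp after the splice donor of exon 5. Exon 6 begins 9726 bp after the end of YY2. The 6 exons after YY2 hold 3658 bp, or 82.3% of the canonical MBTPS2 transcript, and 887 bp of its coding sequence (57%). YY1 is on chromosome 14 (100238298 to 100282788, forward strand) and MBTPS1 on chromosome 16 (84053761 to 84116942, reverse strand, 23 exons).

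**Figure D1:**
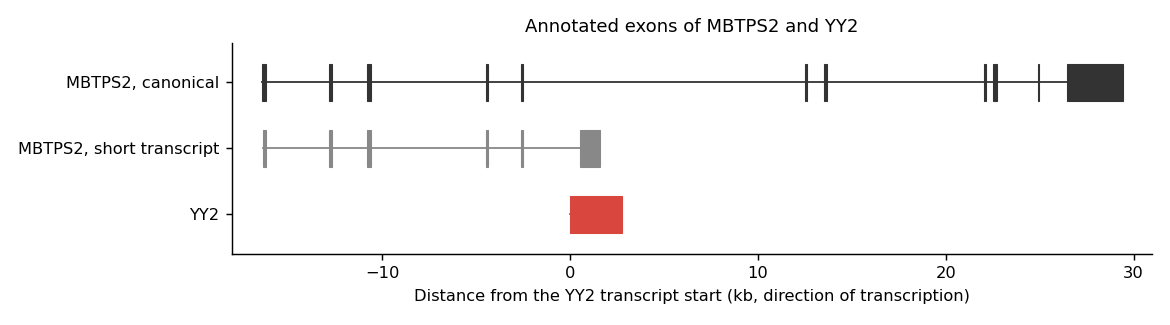
Map of the annotated exons (boxes) and introns (lines) of the canonical and the short MBTPS2 transcript and of YY2, with the distance from the YY2 start in kb, in the direction of transcription, on the x axis. YY2 lies within intron 5 of the canonical transcript, and the short transcript ends in an exon of 1093 bp inside YY2.

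A short annotated MBTPS2 transcript of 6 exons leaves exon 5 at its usual donor and ends inside the YY2 exon, at chrX:21856501-21857593. Its acceptor joins 16 bases after the first base of the YY2 start codon. The 3 splice sites concerned are printed from the reference assembly, forward strand, because they set which reads can be given to which gene; the capitals mark the GT of the donor and the AG of each acceptor.
MBTPS2 exon 5 donor, chrX:21853494-21853523: ttttgtgcagGTaacagacttaattttgtt
Acceptor inside YY2, chrX:21856481-21856510: agccatggcctccaacgaAGatttctccat
MBTPS2 exon 6 acceptor, chrX:21868447-21868476: tttttttcctctctttccAGgtatctggca
Of the 18 bases printed before the AG, 9 were pyrimidines at the acceptor inside YY2 and 18 at the acceptor of exon 6. The 1093 bp that YY2 shares with the short transcript belong to both genes in GENCODE 44, and reads overlapping more than 1 gene were not counted by the authors. If their older GENCODE 29 models, not used here, hold the same transcript, YY2 was counted from 1661 bp, 514 bp before and 1147 bp after the shared stretch. With or without that transcript, reads spliced from an MBTPS2 exon into the YY2 exon overlap both genes and were counted for neither. Reads wholly within the unshared part of the YY2 exon were counted for YY2, whatever transcript they came from. The YY2 count thus cannot tell YY2 transcripts from MBTPS2 transcripts that run into YY2 or from unspliced MBTPS2 RNA.

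YY2 and YY1 were compared by sequence to see how far reads could match both. Over 1116 aligned coding bases, 826 (74.0%) were identical, with 65.1% in the first 372 bases, 72.8% in the next 372 and 84.1% in the last 372, where the zinc fingers are encoded. The longest stretch the YY2 exon shared exactly with the canonical YY1 transcript was 27 bases. It is shown because it bounds how far a read can match both genes without a mismatch.
YY2 run shared with YY1, chrX:21858308-21858334: agtgtaatttctttgcctgttcagtta
None of the 2655 windows of 100 bases of the YY2 exon (0) was found whole in the YY1 transcript. The authors' alignment allowed some mismatches, and windows that match with mismatches were not searched for. The hexamer GAAGAA occurred 1 time on the forward and 0 times on the reverse strand of the YY2 exon. At least 1 forward-strand copy was present in 71.2% of the 19746 windows of the same length tiled over coding genes of the X chromosome.

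Total counts per library ran from 56856228 to 75533510, with overlapping ranges in the 4 groups, and replicates differed by more than counting noise in all groups. Expression is given as CPM, the read count scaled to a common library total after TMM normalization, as mean ± SD with n = 3 per group. SAFB was at 19.5% of control in SAFB1 KD and 16.5% in triple KD, SLTM at 17.7% in SLTM KD and 21.6% in triple KD, and SAFB2 at 23.1% in triple KD. In SAFB1 KD, SAFB2 stood at 166% and SLTM at 120% of control. The 6 HEK293 marker genes (PAX2, VIM, KRT8, KRT18, CDH2, NEFM) were detected in all groups, with a summed level of 1546 to 1694 CPM per library. PTPRC and CD3E of leukocytes were at most at 0.0722 and 0.117 CPM, and the sum of ALB and APOA1 of hepatocytes was at most 0.175 CPM. The fibroblast markers COL1A1, COL3A1 and DCN summed to between 13.6 and 15.3 CPM, most of it COL1A1, with DCN near 0. CDX2 and VIL1 of colon epithelium summed to between 27.5 and 33.4 CPM, nearly all of it CDX2. In such bulk samples, fewer cells expressing a gene and less RNA per cell cannot be told apart. The p-values of the per-gene tests weigh a change against the spread between replicate cultures, estimated over all 4 groups together.

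The YY2 count was low in control cells and 5.5-fold higher in triple KD. The 3 control libraries held 125, 146 and 134 reads (2, 1.96 and 1.77 CPM, mean 1.91 ± 0.119). The 3 triple KD libraries held 639, 763 and 587 reads (11.2, 11 and 9.26 CPM, mean 10.5 ± 1.06). In SAFB1 KD the values were 3.60, 3.16 and 2.84 CPM (3.20 ± 0.384), all above the highest control library and all below the lowest triple KD library. In SLTM KD they were 1.94, 1.94 and 1.67 CPM (1.85 ± 0.159) and overlapped control. From low to high, the order was SLTM KD, control, SAFB1 KD and triple KD, and the first pair in that order did not differ beyond its spread. The log2 fold change against control was 2.46 ± 0.0897 (SE) in triple KD (adjusted p = 6.11e-33), 0.75 ± 0.109 in SAFB1 KD (adjusted p = 4.85e-07, a 1.69-fold rise) and -0.04 ± 0.124 in SLTM KD (adjusted p = 0.92, 95% interval -0.29 to 0.21).

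MBTPS2, which holds YY2 in its intron, fell in the same libraries. Control libraries held 72.3, 75.9 and 74.5 CPM (74.2 ± 1.83) and triple KD libraries 22.2, 22.8 and 22.4 CPM (22.4 ± 0.296, 30.2% of control), with a log2 fold change of -1.73 ± 0.0341 (adjusted p = 4.29e-47). SAFB1 KD libraries held 64.3, 66.2 and 65.0 CPM (65.2 ± 0.962, 87.8% of control), below every control library, and the log2 fold change was -0.19 ± 0.0300 (adjusted p = 4.17e-06). SLTM KD libraries held 69.6, 73.5 and 66.2 CPM (69.8 ± 3.66), which overlapped both control and SAFB1 KD. The log2 fold change of -0.09 ± 0.0299 in SLTM KD passed the test (adjusted p = 0.0425) but did not pass it with DESeq2 (adjusted p = 0.116) or when any of 4 of the 12 libraries was left out, as without SLTM KD replicate 3 (adjusted p = 0.283). The whole-gene count does not separate reads of exons 1 to 5 from those of exons 6 to 11, so where along MBTPS2 reads were lost was not tested.

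**Figure D2:**
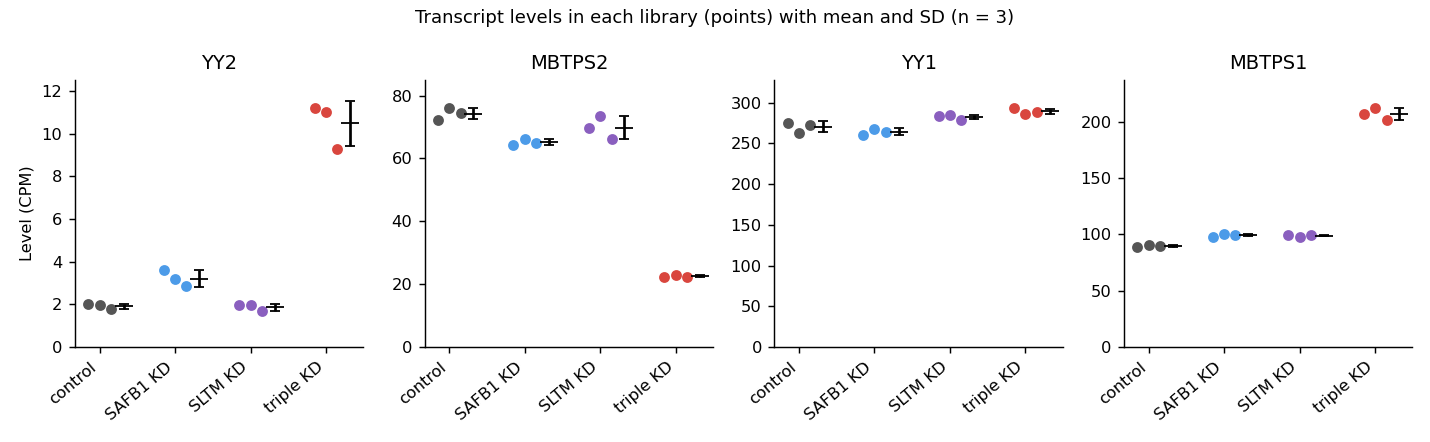
CPM of YY2, MBTPS2, YY1 and MBTPS1 by group. Points are the 3 libraries of each group and bars their mean and SD; YY2 rose from 1.77–2 CPM in control to 9.26–11.2 in triple KD, MBTPS2 fell from 72.3–75.9 to 22.2–22.8, and MBTPS1 rose from 88.5–90.6 to 202–212.

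The share of reads going to the nested gene was compared within each library, which needs no scaling between libraries. Per 100 MBTPS2 reads there were 2.76, 2.58 and 2.38 YY2 reads in control and 50.4, 48.4 and 41.4 in triple KD. SAFB1 KD libraries had 5.60, 4.77 and 4.36, and SLTM KD libraries 2.79, 2.65 and 2.52. The mean log2 ratio was -5.28 ± 0.106 in control, -4.36 ± 0.182 in SAFB1 KD, -5.24 ± 0.0736 in SLTM KD and -1.10 ± 0.15 for the triple KD. Triple KD was thus 18.1-fold and SAFB1 KD 1.90-fold above control, with no overlap of libraries in either case, and SLTM KD was 1.03-fold above control with overlap. An exact two-sided permutation test of 3 against 3 libraries gave p = 0.1 for triple KD and for SAFB1 KD, the smallest value it can give, and p = 0.6 for SLTM KD.

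**Figure D3:**
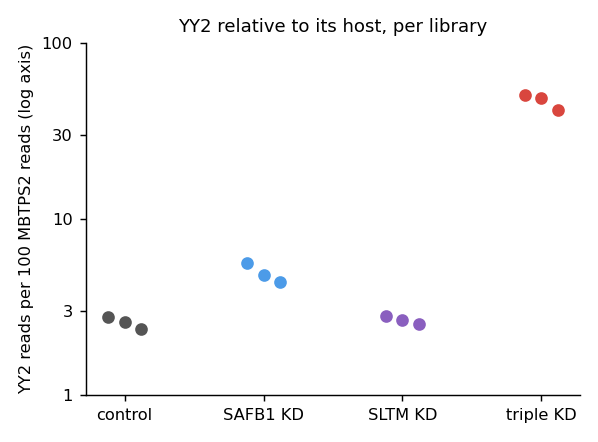
YY2 reads per 100 MBTPS2 reads (y axis, log scale) by group (x axis), with 1 point for each of the 12 libraries. Control and SLTM KD libraries lie between 2.38 and 2.79, SAFB1 KD between 4.36 and 5.60, and triple KD between 41.4 and 50.4.

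Levels of different genes were set side by side only per kilobase of exon. With the exon bases that no other gene on the same strand shares, YY2 was at 1.15 CPM per kb in control and 6.32 in triple KD, and MBTPS2 at 9.58 in control and 2.9 in triple KD. By this length YY2 was below its host in control and above it in triple KD. With the length of the canonical transcripts the order did not turn, since YY2 was then at 3.81 and MBTPS2 at 5.05 CPM per kb in triple KD. Over the unshared exon bases YY1 was the highest of the 4 genes in each group, at 27.3 to 29.8 CPM per kb.

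YY1, the parent gene of the copy, moved little. Control libraries held 276, 263 and 273 CPM (270.5 ± 6.57), SAFB1 KD libraries 261, 268 and 265 (264.6 ± 3.87), SLTM KD libraries 283, 285 and 279 (282.5 ± 2.87) and triple KD libraries 293, 286 and 289 (289.4 ± 3.42). From low to high the order was SAFB1 KD, control, SLTM KD and triple KD, and only the first pair overlapped. The log2 fold change against control was 0.10 ± 0.0205 in triple KD (adjusted p = 5.58e-05, a 1.07-fold rise) and -0.03 ± 0.0206 in SAFB1 KD (adjusted p = 0.421, 95% interval -0.07 to 0.01). In SLTM KD it was 0.06 ± 0.0205 (adjusted p = 0.0401), a call that was lost in 8 of the 12 fits without a single library, as without control replicate 2 (adjusted p = 0.434). ZFP42, the other gene of the YY1 family, had 1 count in 1 of the 12 libraries and was not tested.

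MBTPS1, which encodes the site-1 protease, rose where MBTPS2 fell. Control libraries held 88.5, 90.6 and 89.1 CPM (89.4 ± 1.09) and triple KD libraries 206, 212 and 202 (206.6 ± 4.97), a 2.31-fold rise (log2 fold change 1.21 ± 0.0236, adjusted p = 2.17e-47). Both single knockdowns were also above every control library. SAFB1 KD stood at 99.05 ± 1.07 CPM (log2 fold change 0.15 ± 0.0244, adjusted p = 9.42e-06) and SLTM KD at 98.7 ± 0.684 CPM (0.14 ± 0.0245, adjusted p = 2e-05). These neighbours in the order overlapped each other, with a difference between them of 0.01 on the log2 scale (95% interval -0.04 to 0.05). No exon of another gene on its strand shares bases with MBTPS1.

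**Figure D4:**
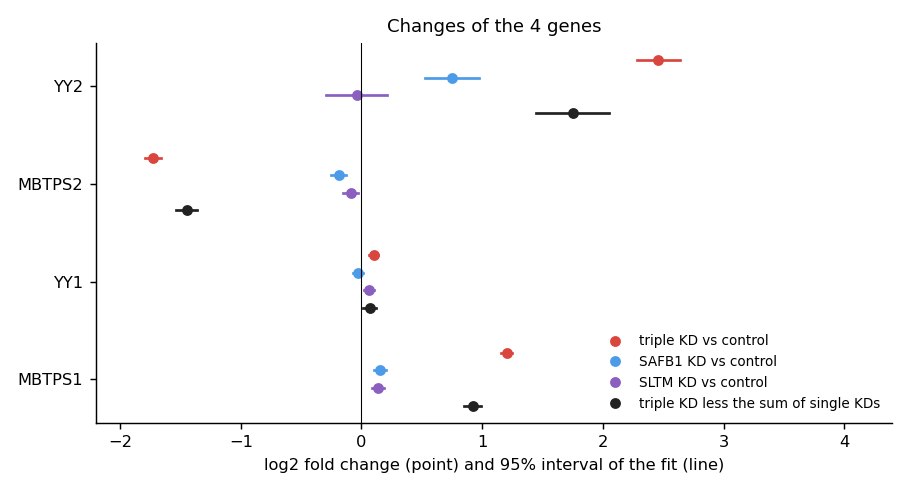
Log2 fold change (x axis) of the 4 genes in each knockdown against control (red, triple KD; blue, SAFB1 KD; purple, SLTM KD) and the departure of triple KD from the added single knockdowns (black); points are edgeR estimates, horizontal lines 95% intervals, and the vertical line marks no change. In triple KD YY2 lies at 2.46, MBTPS1 at 1.21, YY1 at 0.10 and MBTPS2 at -1.73, and the departures of YY2 and MBTPS2 lie at 1.75 and -1.45.

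All 4 genes were called in triple KD against control at an adjusted p under 0.05, where the share called among all 26688 genes was 40.3% (5174 up and 5591 down). In SAFB1 KD 3 of the 4 were called beside 9.66% of all genes, and in SLTM KD 3 of the 4 beside 9.26%. The 4 genes were chosen with earlier results of these data known. Those shares take in genes with few counts, and the share among genes at the level of the 4 was not computed. The counts and ranks here and below thus describe the 4 genes and cannot show enrichment. Ranked by size in triple KD against control, 97.8% of genes had a smaller absolute log2 fold change than YY2, 94.7% a smaller one than MBTPS2, 89.7% a smaller one than MBTPS1 and 21.2% a smaller one than YY1. Ranked by p, MBTPS1 was number 15 and MBTPS2 number 18 of 26688, and YY2, with its low counts, number 127. Tested against a change of 2-fold rather than against none, YY2 (adjusted p = 3.06e-21), MBTPS2 (adjusted p = 3.47e-27) and MBTPS1 (adjusted p = 3.68e-11) passed and YY1 did not (adjusted p = 1), where 0.955% of all genes passed (145 higher and 110 lower).

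Setting triple KD against each single knockdown asks what the joint loss adds. These comparisons share libraries with those against control, so the values stand side by side. Against SAFB1 KD, YY2 was 3.26-fold higher in triple KD (log2 fold change 1.71 ± 0.0834), MBTPS1 higher by 1.06 ± 0.0235, YY1 higher by 0.13 ± 0.0206 and MBTPS2 at -1.54 ± 0.0348. All 4 passed the test there (the largest adjusted p was 3.91e-07, for YY1), beside 34.9% of all genes. Against SLTM KD, YY2 was at 2.5 ± 0.0936, MBTPS1 at 1.07 ± 0.0236 and MBTPS2 at -1.64 ± 0.0347, whereas YY1 was at 0.04 ± 0.0206 (adjusted p = 0.196), so that 3 of 4 were called beside 36.3% of all genes. Between the single knockdowns 3 of 4 were called beside 16% of all genes. In SAFB1 KD relative to SLTM KD, YY2 was higher (0.79 ± 0.114, adjusted p = 2.14e-07), YY1 lower (-0.09 ± 0.0206, adjusted p = 0.000488) and MBTPS2 lower with overlapping libraries (-0.10 ± 0.0305, adjusted p = 0.0187). The MBTPS2 difference did not pass without SAFB1 KD replicate 1 (adjusted p = 0.0689) or SLTM KD replicate 2 (adjusted p = 0.225).

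The triple KD was then compared with what the SAFB1 KD and SLTM KD changes add up to on the log2 scale. That sum would give YY2 a level of 3.10 CPM, MBTPS2 61.2 CPM, MBTPS1 109 CPM and YY1 276 CPM. The triple KD departed from it by 1.75 ± 0.15 for YY2 (adjusted p = 6.72e-15), by -1.45 ± 0.0461 for MBTPS2 (adjusted p = 3.85e-35) and by 0.92 ± 0.0340 for MBTPS1 (adjusted p = 8.96e-32). YY1 departed by 0.07 ± 0.0291 (adjusted p = 0.102, 95% interval 0.01 to 0.12), and passed with upper-quartile factors (adjusted p = 0.0358) and without control replicate 2 (adjusted p = 0.012). Thus 3 of 4 were called beside 21.4% of all genes tested. The triple KD also lowered SAFB2, whereas in SAFB1 KD SAFB2 stood at 166% and SLTM at 120% of control. The shares of the departure that belong to SAFB2 loss, to the joint loss and to these raised levels cannot be told apart.

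The change at MBTPS2 was set beside the coding genes within 500 kb of it. SMS, which encodes spermine synthase, was at 163 ± 1.58 CPM in control and 168 ± 2.87 CPM in triple KD (log2 fold change 0.04 ± 0.0236, adjusted p = 0.153). In SLTM KD it was at 155 ± 6.32 CPM and was called lower (-0.08 ± 0.0237, adjusted p = 0.0281). CNKSR2, SMPX and PHEX were near the detection limit and not called in any knockdown against control, and KLHL34 and CBLL2 had no counts in any library. Of the 4 neighbours tested, 0 were thus called in triple KD by edgeR, 0 had an unadjusted p under 0.05, 0 were called by DESeq2 or limma-voom and 1 with upper-quartile factors. The SMS call in SLTM KD was not made by DESeq2.

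Nearest patterns were sought among 13640 genes with a symbol and a mean of at least 1 CPM in control or triple KD. Likeness over the 12 libraries was the root mean square difference of log2 CPM relative to each gene's control mean. Nearest to YY2 were the processed pseudogenes RPL7AP16 (0.241), AGGF1P2 (0.259), NAP1L4P1 (0.335), TPM3P6 (0.339) and KRT8P46 (0.343). In that order they were at 0.363, 0.834, 0.459, 0.342 and 0.413 CPM in control. In triple KD they were at 1.68, 3.64, 3.24, 1.46 and 2.68 CPM, so each entered the comparison only through its triple KD level. Processed pseudogenes are, like YY2, reverse-transcribed copies without introns. Except for AGGF1P2, each lies inside a canonical intron of a gene on the same strand, as do 1.36% of the genes compared. That share covers all kinds of gene, and the share among processed pseudogenes alone was not computed. The log2 fold changes of the named pseudogenes in triple KD were 2.20, 2.13, 2.79, 2.06 and 2.72 in the order named. The choice by likeness to YY2 fixes that pattern. The host genes were not used in that choice. GPBP1L1, host of RPL7AP16, was at -0.41, CD58 at -0.49, ZNF813 at -0.20 and MANBA at -1.02, each called lower (the largest adjusted p was 0.00381, for ZNF813), beside 20.9% of all genes tested called lower. That share takes in genes with few counts, and the share among genes at the level of these hosts was not computed. Counts of processed pseudogenes are uncertain where a parent gene has near-identical sequence.

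The nearest patterns to MBTPS2 were those of LRRC28 (0.0753), KCNAB2 (0.0834), CCDC3 (0.104), TMEM222 (0.107) and KYAT3 (0.11), with log2 fold changes of -1.70, -1.79, -1.70, -1.55 and -1.70 in triple KD. LRRC28 holds the processed pseudogene HSP90B2P in an intron on its strand, which was at 0.262 CPM in control and 14.4 CPM in triple KD (log2 fold change 5.79, adjusted p = 6.79e-45). A second processed pseudogene in LRRC28, ENSG00000259257, went the other way from a very low level, 0.0374 CPM in control and 0 in triple KD (adjusted p = 0.0229). TMEM222 holds ACTG1P20, which was at 0.641 CPM in control and 2.82 CPM in triple KD (2.15, adjusted p = 6.79e-19). By the rule used here, KCNAB2, CCDC3 and KYAT3 held none. It asks for a tested coding gene or processed pseudogene wholly inside a canonical intron on the same strand. Of the genes compared, 4.12% are hosts by this rule. The retrogene RBMXL1, set beside its host KYAT3 below, did not meet the rule.

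A short list of 4 other retrogenes that sit in a host gene, not a complete one, held RBMXL1 in KYAT3, GALNT4 in POC1B, UTP14C in ALG11 and MCTS2 in HM13. RBMXL1, a copy of the RNA-binding protein gene RBMX, was at 33.5 ± 0.858 CPM in control and 59.9 ± 1.06 CPM in triple KD (log2 fold change 0.84 ± 0.0329, adjusted p = 2.13e-31), while KYAT3, its host, fell from 28.6 ± 1.03 to 8.80 ± 0.490 CPM (-1.70 ± 0.0473, adjusted p = 4.35e-39). POC1B, a centriole gene, fell from 21.8 ± 0.688 to 2.11 ± 0.0125 CPM (-3.37 ± 0.0649, adjusted p = 1.26e-47), and GALNT4 inside it was at 0.360 ± 0.120 and 0.622 ± 0.0981 CPM (0.80 ± 0.253, adjusted p = 0.00779). UTP14C fell by 0.30 and its host ALG11 rose by 0.34, the opposite signs to YY2 and MBTPS2. HM13 was at -0.37, and MCTS2 inside it was listed at 0. So 2 of the 3 retrogenes tested rose and 1 fell (median 0.80), and of the 4 hosts 1 rose and 3 fell (median -1.04), beside 19.4% of all genes higher and 20.9% lower. The list was chosen with earlier results of these data known, so these counts do not speak for nested retrogenes in general. All 5529 exon bases of UTP14C are shared with ALG11, 5029 of 5385 exon bases of GALNT4 with a read-through transcript of the locus, 700 of 703 exon bases of MCTS2 with HM13, and 359 of 5087 exon bases of RBMXL1 with KYAT3. These are GENCODE 44 models. UTP14C held 446 to 830 reads per library despite the full overlap, so the exons these genes share in the older models used for counting are not known here, and the counts of these retrogenes are uncertain. In SAFB1 KD, POC1B was at -0.86 ± 0.0469 (adjusted p = 9.01e-23), KYAT3 at -0.35 ± 0.0408 (adjusted p = 1.13e-09) and RBMXL1 at 0.44 ± 0.0338 (adjusted p = 3.81e-16). The other 2 retrogenes tested and 2 hosts were not called there, with GALNT4 at 0.24, UTP14C at -0.03, HM13 at -0.03 and ALG11 at 0.01. In SLTM KD 1 retrogene, UTP14C (-0.32), and 1 host, POC1B (-0.26), were called, both lower.

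The genes around the proteases were read from lists of textbook members, with each list's median log2 fold change in triple KD set beside the median of -0.004 over all genes. Of all genes 19.4% were called higher and 20.9% lower in that comparison, the background for each count. This background, like that of the single knockdowns below, takes in genes with few counts. The share among genes at the level of the listed ones was not computed, so the counts cannot show enrichment. Of 11 genes for processing and retention of SREBP, 8 rose, 2 fell and 1 did not pass, with a median of 0.14. SPRING1, a cofactor of SREBP processing, rose by 0.40, SCAP, the sterol-sensing escort of SREBP, by 0.33 and INSIG1, which holds that escort in the endoplasmic reticulum, by 0.30. ERLIN2, of the machinery that degrades INSIG1, fell by 0.81. Among 29 SREBP target genes 9 rose, 13 fell and 7 did not pass, with a median of -0.02. HMGCS1, an early enzyme of sterol synthesis, rose by 0.19 and LSS by 0.18, whereas the sterol oxidase gene MSMO1 fell by 0.89, the sterol carrier gene STARD4 by 0.58 and the desaturase gene SCD by 0.25. The list as a whole thus had no single direction.

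Among the 7 other membrane-bound transcription factors cut by both proteases 2 rose, 4 fell and 1 did not pass, with a median of -0.14. CREB3L2 rose by 0.53 and ATF6B by 0.09, and CREB3L1 fell by 0.95 ± 0.313, CREB3 by 0.19 and ATF6 by 0.14. CREB3L1 was at a low level, 0.3965 CPM in control and 0.2009 CPM in triple KD. The other genes named from these 6 lists had an SE of at most 0.0452. Of the 3 substrates of the site-1 protease alone, GNPTAB, a subunit of the enzyme that tags lysosomal proteins, rose by 0.38, ATP6AP2 fell by 0.42 and FAM20C fell by 0.38 (median -0.38). Of 16 ATF6 target genes 7 rose, 6 fell and 3 did not pass, with a median of -0.01. PDIA4, a disulfide isomerase, rose by 1.05, SEL1L of protein degradation by 0.68 and the chaperone gene DNAJC3 by 0.55, and SDF2L1 fell by 0.26, HSPA5 by 0.19 and CALR by 0.18. Of 25 genes for partners of YY1, 15 rose, 4 fell and 6 did not pass, with a median of 0.14. MCRS1 rose by 0.51, CTCF by 0.32 and HDAC1 by 0.26, and UCHL5 fell by 0.39, YAF2 by 0.28 and MBTD1 by 0.17.

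**Figure D5:**
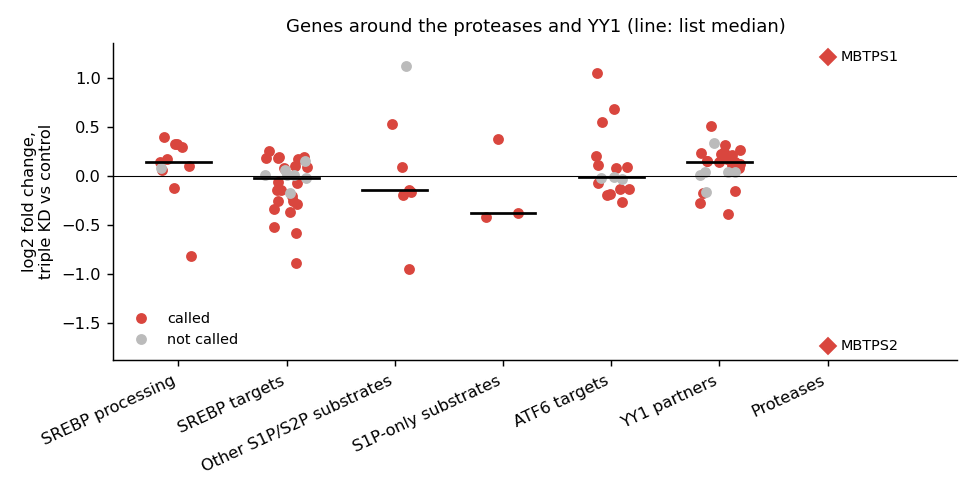
Change of each gene of 6 lists in triple KD relative to control, on the log2 scale (y axis), with 1 point per gene, red where called at an adjusted p under 0.05 and grey otherwise; short lines mark list medians, the long line no change, S1P and S2P stand for the site-1 and site-2 proteases, and diamonds show MBTPS1 and MBTPS2. List medians run from -0.38 for substrates of the site-1 protease alone to 0.14 for SREBP processing genes and YY1 partners, between MBTPS2 at -1.73 and MBTPS1 at 1.21.

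In SAFB1 KD and SLTM KD, 9.66% and 9.26% of all genes were called, against 40.3% in triple KD, and the list counts stand beside those shares. In SAFB1 KD there were 2 higher and 1 lower among the SREBP processing genes, 5 higher and 2 lower among the SREBP targets, 5 among the ATF6 targets and 6 among the YY1 partners, these last lists with higher genes alone. Of the substrates of both proteases and of the site-1 protease alone, 1 each was called higher. In SLTM KD there were 2 SREBP processing genes, both lower, 1 higher and 5 lower SREBP targets, 3 ATF6 targets, all higher, 2 higher and 4 lower YY1 partners, and 1 lower substrate of the site-1 protease alone. Many of these small counts moved with single libraries. Without control replicate 3, 2 ATF6 targets and 2 YY1 partners were called in SAFB1 KD and 3 SREBP targets in SLTM KD, and without control replicate 2 there were 3 SREBP targets in SAFB1 KD. Median log2 fold changes over all genes were 0 in SAFB1 KD and 0.005 in SLTM KD.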

How the data were processed

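Poly(A) RNA-seq of 12 HEK293 libraries was analysed, 3 in each of 4 groups given by the labels. Per the labels and the study's methods, the authors trimmed reads with cutadapt, aligned them to GRCh38 with STAR 2.7.9a in two-pass mode using GENCODE 29, and deposited raw counts per gene, in which only uniquely mapped reads on the reverse-stranded setting that overlap a single gene are counted; deepTools 3.5.1 is also listed in the submitters' processing notes. Of 58780 gene identifiers, 58207 (99% of identifiers, 99.9% of counts) matched GENCODE 44, which gave symbols, exons and coordinates, with sequence from GRCh38. Protein sequences were not used here.

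Genes with at least 10 counts over the 12 libraries (26688) were fitted together in R 4.3.3 with edgeR 4.0.16 (TMM factors, quasi-likelihood F test, group as the sole term, two-sided). P-values were adjusted by Benjamini and Hochberg's method across these genes, and a gene was called where the adjusted value was under 0.05. Changes over 2-fold used glmTreat on that fit. The biological coefficient of variation was 2.14%. The departure from additivity was the contrast triple KD less SAFB1 KD less SLTM KD plus control. The YY2 to MBTPS2 ratio used an exact permutation test. Lists are described by counts and medians, with no set test. The test script was tested on simulated data. Alternatives were upper-quartile and RLE factors, other filters on low counts, DESeq2 1.42.0, voom in limma 3.58.1, fits of only the libraries compared, a replicate block, and leaving out each library.

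Depth ran from 56856228 to 75533510 counts. A gene with few counts, such as YY2 in control, is less precisely measured, and its wider interval shows this. Named genes were the 4 members, the siRNA targets, per list and direction the 3 called genes with the smallest adjusted p in triple KD, the nested retrogenes with their hosts, neighbours within 500 kb, ZFP42, and the 5 nearest patterns to YY2 and to MBTPS2, with the genes nested in or hosting these. Members and lists were chosen with earlier results of these data known. The series text calls the replicates biological. A few genes that this rule names are not reported here.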

Additional observations from a re-analysis of the deposited data

How the results depend on the processing

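Direction and call held under all 20 alternatives for YY2, MBTPS2 and MBTPS1 in triple KD and in SAFB1 KD against control, with log2 fold changes of 2.4 to 2.54, -1.74 to -1.69 and 1.19 to 1.24 in triple KD. The small differences did not all hold, and the cause was not tested. MBTPS2 in SLTM KD against control was not called with upper-quartile factors (-0.07), filterByExpr, DESeq2 or a fit of only the libraries compared (-0.09 each), and ran from -0.14 to -0.06 (adjusted p 0.00214 to 0.283) when single libraries were left out. It was not called without control replicate 2 or 3 or SLTM KD replicate 1 or 3. YY1 in that comparison was not called with no filter (0.05) or a fit of only the libraries compared (0.06), and ran from 0.04 to 0.08 without single libraries (adjusted p 0.0252 to 0.434), losing its call in 8 of these 12 fits. YY2 in SLTM KD ran from -0.1 to 0.02 (positive without SLTM KD replicate 3, adjusted p = 0.966) and the log2 ratio of YY2 to MBTPS2 there from -0.01 (without control replicate 3) to 0.1, all uncalled. MBTPS2 in SAFB1 KD relative to SLTM KD ran from -0.14 to -0.06, and MBTPS1 in that comparison was -0.01 with upper-quartile factors (adjusted p = 0.796). The YY1 departure from the sum of the single knockdowns was called with upper-quartile factors (0.08) and without control, SLTM KD or triple KD replicate 2 (0.05 to 0.1 over libraries left out); all 4 groups enter it, so a fit of only the libraries compared gives nothing new there. DESeq2 made the same calls against a 2-fold change.

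Same-numbered libraries were only weakly alike: of 18 same-numbered pairs 1 had a correlation of deviations over 0.1 (median 0.051). Of 36 differently numbered pairs 0 did (median -0.028), and 9 of 12 libraries correlated best with their own number. A shared effect of the replicate number was not tested, and the main fit has no term for it. With the replicate block, the YY1 departure of 0.07 was called (adjusted p = 0.0374); no other call of the 4 genes changed.

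Genes called in SAFB1 KD ran from 1706 (without SAFB1 KD replicate 2) to 2723. Members called in SAFB1 KD without single libraries were 3 to 6 for SREBP targets, 0 to 1 for site-1 protease substrates, 2 to 5 for ATF6 targets and 2 to 6 for YY1 partners; with no filter, 0 site-1 protease substrates and 3 ATF6 targets were called. In SLTM KD they were 3 to 6 SREBP targets, 0 to 1 site-1 protease substrates, 3 to 7 YY1 partners and 0 to 1 neighbours; 5 ATF6 targets and 0 neighbours were called with upper-quartile factors, and 0 neighbours with DESeq2 or only the libraries compared. In triple KD 1 neighbour was called with upper-quartile factors. Among the 4 genes depth limits YY2 most, with 97 to 146 reads per library in control and SLTM KD.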
